A study of Mus musculus with 8 samples.

Results

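Motile cilium genes were followed across 8 lung tumors of mice, 4 carrying an intact Setd2 gene (K-Ctrl) and 4 in which Setd2 was targeted (K-Setd2KO). The genes were found by symbol and comprise the protein-coding genes named Dnah, Dnai, Dnaaf, Rsph or Tekt followed by a digit, together with Foxj1, Tppp3, Ccno, Mcidas, Hydin, Spag6, Spag17, Cfap43 and Cfap44. Through the GENCODE M21 mouse annotation the rule found 41 of the 48709 genes in the table, of which 21695 were protein-coding. They were 15 Dnah, 4 Dnaaf, 8 Rsph and 5 Tekt genes and the 9 genes named singly. No symbol began with Dnai and a digit, because this annotation lists the dynein intermediate chains as Dnaic1 and Dnaic2, and these are described with the outer arm genes further on.

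All 8 tumors arose in mice of mixed B6J/129S4vJae background that carried the same Cre-dependent tumor allele in both groups. Cre came from the lentiviral vector LentiCRISPRv2Cre, given by endotracheal intubation, so the vector could enter any lung cell it reached. In K-Ctrl tumors the vector also carried Cas9 and a guide RNA against GFP, and in K-Setd2KO tumors a guide against Setd2, which encodes the methyltransferase that places trimethylation on lysine 36 of histone H3. Each sample was a frozen tumor with whatever other cells it held, the labels giving neither a sort, an age, a sex nor the number of mice, although their extraction note speaks of cell lines. Whether replicates came from separate mice is therefore unknown, and the p-values below measure only the spread between these tumors. The question the comparison addresses is how loss of Setd2 alters gene expression in these tumors.

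A motile cilium beats because dynein arms, fixed to microtubule doublets of its axoneme, walk along the neighbouring doublet. Outer arms supply most of the power, inner arms shape the bend, radial spokes and the central pair set the pattern, tektins run inside the doublet wall, and assembly factors fold the dyneins in the cytoplasm before they enter the cilium. In lung these structures belong to the multiciliated cells of the airway lining, whose program is switched on by Mcidas and Foxj1, while sperm tails use a partly different set of dyneins, and the single primary cilium of other cells lacks dynein arms.

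K-Setd2KO replicate 4 was the shallowest library, with a total of 5806599 counts, and K-Ctrl replicate 3 the deepest, with 21290402 (a 3.67-fold range). Levels are given as CPM, counts per 1000000 counts of the scaled library, and 3 counts, taken as the floor of a library, corresponded to 0.138 CPM in the deepest tumor and 0.514 CPM in K-Setd2KO replicate 4. Many members lay within a few counts of it in K-Setd2KO tumors. Setd2 transcript itself, which a guide-induced frameshift need not lower, was at 140.1 ± 8.81 CPM in K-Ctrl and at 135.7 ± 15.5 CPM in K-Setd2KO tumors (SD, n = 4 each), a log2 difference of -0.05 with edgeR adjusted p = 0.824, so the RNA gives no check of the labels. The alveolar type 2 marker Sftpc was at 21506 CPM or more in every tumor labelled as lung adenocarcinoma. Going by Xist and Y-linked transcripts, 1 K-Ctrl tumor (replicate 2) and 3 K-Setd2KO tumors (replicates 1, 2 and 4) were female, so sex and genotype were partly aligned.

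Of the 41 members, 31 had a lower and 10 a higher mean CPM in K-Setd2KO than in K-Ctrl tumors. Of these, 27 passed the filter on low counts and were tested, and 14 were too low to be tested. In the test 6 members fell (Dnah9, Tppp3, Dnah11, Dnah10, Dnah6 and Cfap43) and 0 rose at an edgeR adjusted p below 0.05, where 7.74% of the 14929 tested genes fell and 4.97% rose. At an unadjusted p below 0.05, 13 of the 27 were lower (16.3% of all tested genes) and 3, Dnah17, Rsph3a and Rsph3b, were higher (13.6%). For 7 of the 27 every K-Setd2KO tumor lay below every K-Ctrl tumor, against 11.2% of all tested genes, and the untested Dnah7b and Tekt2 made it 9 of the 41. For 2 of the 27, Rsph3b and Dnah17, every K-Setd2KO tumor lay above, against 9.06%. Tested members had a median log2 fold change of -1.32, and that of all tested genes was 0.03. This median leans on the filter, which asked for about 0.788 CPM in 4 tumors: Dnah9 and Dnah11 exceeded that level in no K-Setd2KO tumor, so K-Ctrl tumors alone carried them into the test, and Dnah1, Dnah5, Foxj1 and Tekt4 exceeded it in all 4 K-Ctrl tumors and in 1 K-Setd2KO tumor at most. In whole tumors, fewer ciliated cells and less RNA in each such cell cannot be told apart.

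**Figure D1:**
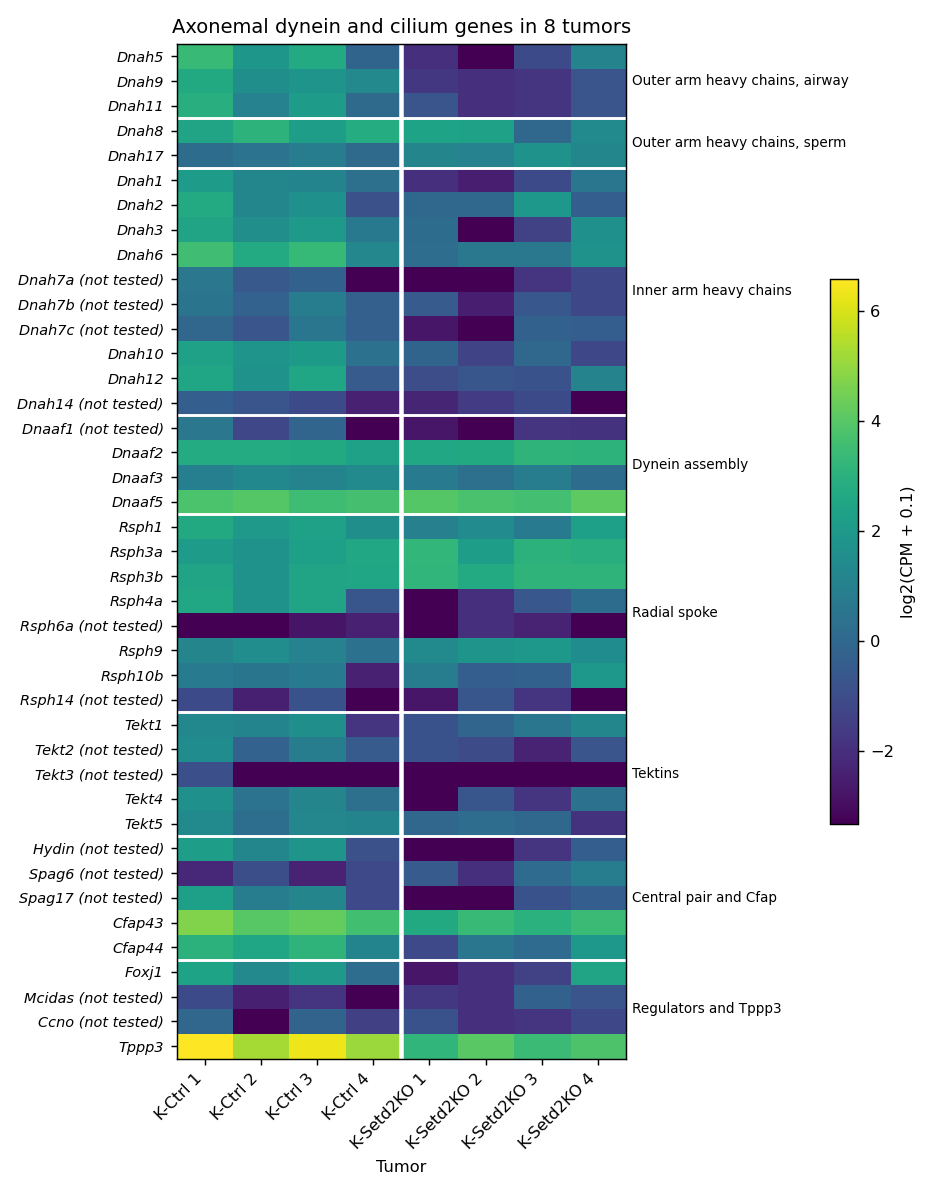
Level of each of the 41 members (rows, grouped by role) in each of the 8 tumors (columns), as log2(CPM + 0.1) by color. The left block of 4 columns is brighter for most dynein heavy chains, whereas Dnaaf2, Dnaaf5 and most Rsph genes have similar colors in both blocks, and K-Ctrl replicate 4 and K-Setd2KO replicate 4 depart from their groups.

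Of the outer arm heavy chains of airway cilia, Dnah5, Dnah9 and Dnah11, 2 fell, Dnah9 and Dnah11. Neither exceeded the filter level in any K-Setd2KO tumor, so K-Ctrl tumors alone carried both into the test. Dnah9 (ENSMUSG00000056752.16, GRCm38 chromosome 11, 65831282 to 66168551, minus strand), which encodes the heavy chain at the distal part of the airway cilium, stood at 6.40, 2.94, 3.37 and 2.41 CPM in K-Ctrl replicates 1 to 4 and at 0.205, 0.153, 0.185 and 0.514 CPM in K-Setd2KO replicates 1 to 4. The latter values rest on only 4, 2, 2 and 3 counts, all far below the K-Ctrl tumors. Its log2 fold change was -3.96 with SE 0.533 and edgeR adjusted p = 0.00623. Dnah11 (chromosome 12, 117877982 to 118199043), the partner heavy chain of the proximal part of the cilium, stood at 7.33, 2.02, 4.25 and 0.982 CPM in K-Ctrl and at 0.514, 0.153, 0.185 and 0.514 CPM in K-Setd2KO tumors. The groups did not overlap, although K-Ctrl replicate 4 came close, and the log2 fold change was -3.41 with SE 0.725 and edgeR adjusted p = 0.0190. Dnah5 (chromosome 15, 28203752 to 28472045), the heavy chain found along the whole airway cilium and often mutated in primary ciliary dyskinesia, was at 10.2, 3.70, 6.65 and 0.803 CPM in K-Ctrl and at 0.154, 0, 0.369 and 2.05 CPM in K-Setd2KO tumors. Here the groups overlapped through the replicate 4 tumor on either side, and a log2 fold change of -3.37 with SE 1.12 did not pass (edgeR adjusted p = 0.0811).

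The outer arm heavy chains of sperm tails, Dnah8 and Dnah17, did not share that pattern of levels. Dnah8 was at 5.42, 8.40, 4.62 and 6.87 CPM in K-Ctrl and at 5.24, 5.05, 0.923 and 2.57 CPM in K-Setd2KO tumors, with overlap and edgeR adjusted p = 0.272. Dnah17 went the other way, from 1.05, 1.26, 1.75 and 0.982 CPM in K-Ctrl to 2.16, 1.99, 3.23 and 2.22 CPM in K-Setd2KO tumors. No tumor overlapped for Dnah17, yet its log2 fold change of 0.91 with SE 0.35 did not pass (edgeR adjusted p = 0.118). Summed per tumor, the airway chains gave 23.9, 8.66, 14.3 and 4.20 CPM for K-Ctrl and 0.873, 0.306, 0.738 and 3.08 CPM in K-Setd2KO, whereas the sperm chains gave 6.46, 9.67, 6.37 and 7.85 CPM against 7.40, 7.04, 4.15 and 4.79 CPM. The airway sum was lower in each K-Setd2KO tumor than in any K-Ctrl tumor, and the sperm sums overlapped. The difference between both pairs of chains was not tested. Of 8 spermatogenic markers (Prm1, Prm2, Tnp1 and others) 0 passed the filter, and their summed level was 0 to 0.431 CPM in K-Ctrl and at 0.459 to 0.856 CPM in K-Setd2KO tumors.

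**Figure D2:**
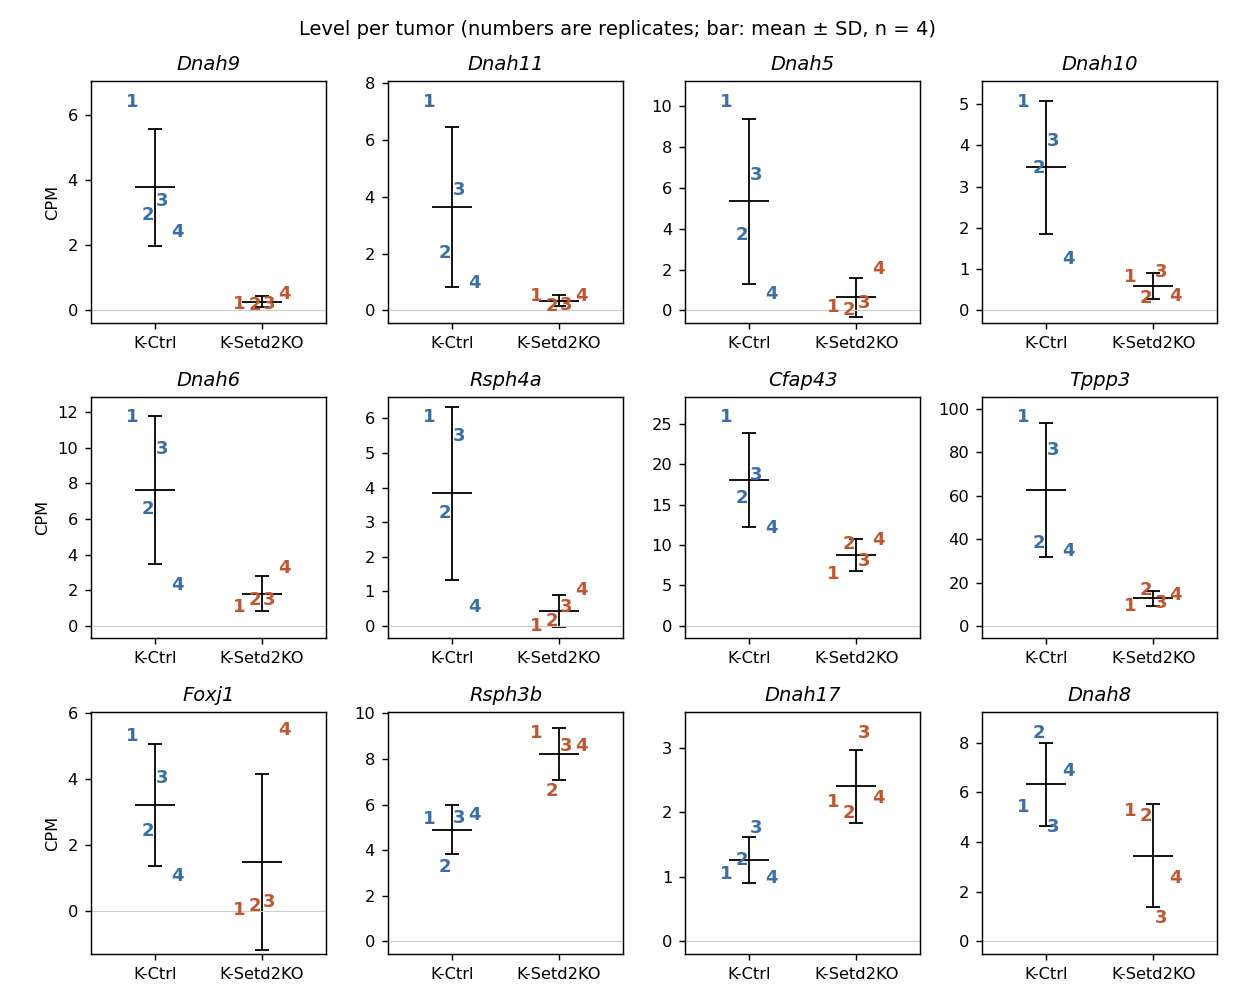
CPM (y axis) of 12 members in each tumor, with the printed digit giving the replicate number, K-Ctrl in blue and K-Setd2KO in orange; the long bar is the mean and the whisker the SD (n = 4 each). The groups are apart for Dnah9, Dnah11, Dnah10, Cfap43 and Tppp3, they are apart in the opposite direction for Rsph3b and Dnah17, and K-Setd2KO replicate 4 sits with the K-Ctrl tumors for Foxj1.

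The inner arm heavy chains were lower in mean for every one of the 6 that could be tested, and 2 of them fell. Dnah10 (chromosome 5, 124725085 to 124834308), one of the pair of heavy chains of the double-headed inner arm f, was at 5.05, 3.45, 4.11 and 1.25 CPM in K-Ctrl and at 0.822, 0.306, 0.923 and 0.342 CPM in K-Setd2KO tumors. The tumors did not overlap, and Dnah10 fell by 2.47 on the log2 scale (SE 0.548, edgeR adjusted p = 0.0221). Dnah6 (chromosome 6, 73017606 to 73221651), a single-headed inner arm chain, was at 11.7, 6.56, 9.93 and 2.32 CPM in K-Ctrl and at 1.08, 1.45, 1.48 and 3.25 CPM in K-Setd2KO tumors. It fell by 2.13 (SE 0.540, edgeR adjusted p = 0.0342) despite an overlap between K-Ctrl replicate 4 and K-Setd2KO replicate 4. Per kilobase of exon Dnah6 had the highest mean level of the 15 heavy chains in K-Ctrl tumors, at 0.576 CPM per kb against 0.434 for Dnah8, whereas in K-Setd2KO tumors Dnah8 was above it, at 0.236 against 0.137.

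The other tested inner arm chains missed the threshold. Dnah1, another inner arm heavy chain, was at 4.25, 2.27, 2.12 and 1.16 CPM in K-Ctrl and at 0.154, 0.0765, 0.369 and 1.37 CPM in K-Setd2KO tumors, a log2 difference of -2.59 with edgeR adjusted p = 0.0625. Dnah12 was at 5.54, 3.28, 5.54 and 0.625 CPM in K-Ctrl and at 0.411, 0.535, 0.461 and 2.05 CPM in K-Setd2KO tumors, a log2 difference of -2.26 with edgeR adjusted p = 0.0805. For both genes it was again the replicate 4 tumors that crossed into the other group. Dnah3, at a log2 difference of -1.78 with adjusted p = 0.247, and Dnah2, the partner of Dnah10 in arm f, at -0.97 with adjusted p = 0.442, did not pass by the same edgeR test. Dnah2 reached 3.78 CPM in K-Setd2KO replicate 3 alone, above 3 of the 4 K-Ctrl tumors.

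Dnah14, Dnah7a, Dnah7b and Dnah7c were too low to be tested. Summed over the 4 tumors, Dnah14 had 26 counts in K-Ctrl against 9 in K-Setd2KO. The 3 Dnah7 genes are near copies on chromosome 1, so reads may have been split between or lost from them, and their counts are uncertain. Dnah7a had 46 and 4 counts, Dnah7b 75 and 21, and Dnah7c 58 and 13, in K-Ctrl and K-Setd2KO. The 4 tumors of a group differ in depth, so these sums say only that all 4 genes had fewer counts in K-Setd2KO, and for Dnah7b alone no tumor overlapped in CPM.

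**Figure D3:**
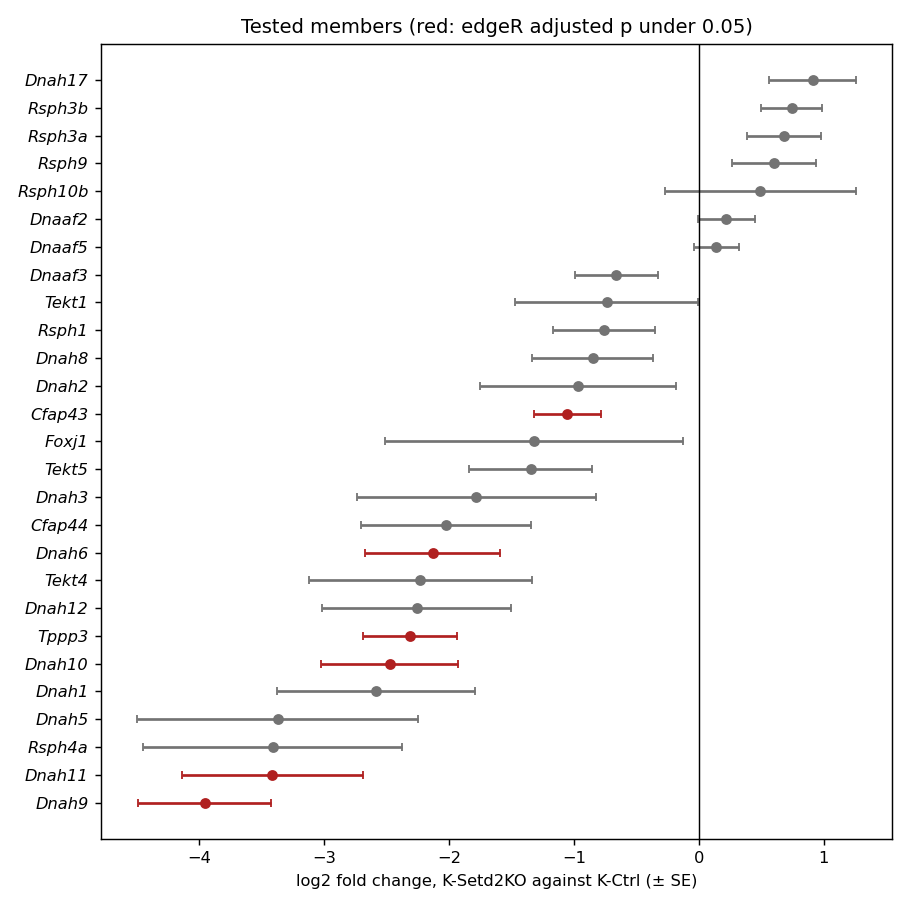
Log2 fold change of K-Setd2KO against K-Ctrl (x axis) with its SE for the 27 tested members (y axis, in order of fold change), in red where the edgeR adjusted p is below 0.05. The values run from -3.96 for Dnah9 to 0.91 for Dnah17, and the 6 red points all lie below 0.

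Of the dynein assembly factors, which act in the cytoplasm, 0 passed the test. Dnaaf5, a HEAT-repeat protein, was at 13.5, 15.7, 11.3 and 12.7 CPM in K-Ctrl and at 15.8, 13.2, 12.3 and 17.3 CPM in K-Setd2KO tumors. Dnaaf2 was at 6.77, 6.81, 6.46 and 4.998 CPM and at 6.01, 6.35, 8.58 and 8.39 CPM. Their ranges overlapped, although 2 K-Setd2KO tumors lay above every K-Ctrl tumor in each, with log2 differences of 0.14 (SE 0.181, edgeR adjusted p = 0.644) and 0.22 (SE 0.226, adjusted p = 0.549). Dnaaf3 was lower in each K-Setd2KO tumor, at 1.59, 1.15, 1.75 and 1.03 CPM against 1.85, 2.35, 2.08 and 2.59 CPM, but did not pass (log2 difference -0.66, edgeR adjusted p = 0.215). Dnaaf1 was not tested and had 45 counts over K-Ctrl tumors and 4 over the K-Setd2KO tumors. Exons of Dnaaf2 and of Dnaaf1 lie over exons of a gene on the other strand for 32.7% and 20.7% of their length, and since the strand setting of the counting is not stated, reads of either partner could be included. Such overlap touched 19 of the 41 members to some extent, and 3 (Cfap43, Dnaaf3 and Rsph10b) shared exon bases with a gene on their own strand.

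Radial spoke genes split in direction. Rsph4a (chromosome 10, 33905111 to 33916021), a spoke head protein particular to motile cilia of epithelia, was at 6.03, 3.28, 5.49 and 0.536 CPM in K-Ctrl and at 0, 0.153, 0.554 and 1.03 CPM in K-Setd2KO tumors. Its log2 difference of -3.41 had an SE of 1.04 and edgeR adjusted p = 0.0616, with K-Ctrl replicate 4 inside the K-Setd2KO range. Rsph1, another spoke head protein, had a log2 difference of -0.76 with edgeR adjusted p = 0.248.

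Rsph3b, of the spoke stalk, stood at 5.36, 3.28, 5.40 and 5.53 CPM in K-Ctrl and at 9.14, 6.58, 8.58 and 8.56 CPM in K-Setd2KO tumors. Every K-Setd2KO tumor was above every K-Ctrl tumor, but the log2 difference of 0.74 (SE 0.245) had edgeR adjusted p = 0.0767. Its near copy Rsph3a was at 4.31, 3.28, 4.76 and 5.89 CPM and at 9.24, 4.44, 8.21 and 7.36 CPM, a log2 difference of 0.68 with edgeR adjusted p = 0.160. Both copies lie on chromosome 17 and may share reads, so their values are not independent. Rsph9 and Rsph10b had log2 differences of 0.60 and 0.49 with edgeR adjusted p of 0.266 and 0.705. Rsph14, with 17 and 10 counts in K-Ctrl and K-Setd2KO, and Rsph6a, a spoke head gene of sperm with 2 and 3 counts, were not tested. Per kilobase, Rsph1 had the highest mean level of the family in K-Ctrl tumors, at 3.91 CPM per kb against 3.03 for Rsph3b, and Rsph3b in K-Setd2KO tumors, at 5.09 against 2.37 for Rsph1.

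All 3 tested tektins were lower in mean, and 0 of them passed. Tekt5 was at 2.59, 1.09, 2.31 and 2.14 CPM in K-Ctrl and at 0.873, 1.07, 0.923 and 0.171 CPM in K-Setd2KO tumors. Although these did not overlap, the closest pair differed by little, and the log2 difference of -1.35 had edgeR adjusted p = 0.105. Tekt4 was at 3.02, 1.26, 2.17 and 1.16 CPM and at 0, 0.535, 0.185 and 1.20 CPM, with 1 K-Setd2KO tumor above the lowest K-Ctrl tumor (log2 difference -2.23, edgeR adjusted p = 0.130). Tekt1, at 1.18 CPM per kb in K-Ctrl against 1.24 for Tekt4 and at 0.757 against 0.313 in K-Setd2KO tumors, had a log2 difference of -0.74 with edgeR adjusted p = 0.538. Tekt2 was not tested, with 97 counts over the K-Ctrl and 18 over the K-Setd2KO tumors and no overlap in CPM, and 20.8% of its exon length lies over a gene on the other strand. Tekt3 had counts in K-Ctrl replicate 1 alone, 7 in all.

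Tppp3, a tubulin polymerization promoting protein abundant in airway ciliated cells, was the member with the highest level per length, at 20.4 CPM per kb on average. It lies at chromosome 8, 105467493 to 105471526, and stood at 96.2, 38.2, 81.3 and 34.5 CPM in K-Ctrl and at 9.09, 16.7, 10.7 and 14.2 CPM in K-Setd2KO tumors. The lowest K-Ctrl tumor was well above the highest K-Setd2KO tumor, and Tppp3 fell by 2.31 on the log2 scale (SE 0.375, edgeR adjusted p = 0.00895). Unlike the heavy chains, its level rests on 83 to 218 counts in the K-Setd2KO tumors. Tppp3 made up 24.4% to 35.8% of the summed member CPM in K-Ctrl tumors and 11.3% to 20.4% in K-Setd2KO tumors, so sums are also given without it below.

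Cfap43 and Cfap44 encode WD-repeat proteins that tether inner arm f to the doublet. Cfap43 (chromosome 19, 47737561 to 47919299) was at 25.8, 15.9, 18.6 and 12.1 CPM in K-Ctrl and at 6.37, 10.1, 8.03 and 10.6 CPM in K-Setd2KO tumors. There was no overlap, and Cfap43 fell by 1.05 (SE 0.269, edgeR adjusted p = 0.0350), the smallest fall among the 6. Cfap44 was at 8.12, 5.71, 8.59 and 2.14 CPM and at 0.359, 1.38, 1.02 and 3.77 CPM, overlapping through the replicate 4 tumors, with a log2 difference of -2.02 and edgeR adjusted p = 0.0830.

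Hydin, Spag17 and Spag6 belong to the central pair apparatus. None of these 3 passed the filter on low counts. Hydin had 73, 27, 73 and 5 counts in K-Ctrl against 0, 0, 2 and 4 counts in K-Setd2KO tumors. Spag17 had 76, 20, 47 and 4 counts and 0, 0, 5 and 4 counts. In both genes K-Ctrl replicate 4 had about as few counts as K-Setd2KO replicates 3 and 4. Fitted without the filter, Hydin had a log2 difference of -4.03 with edgeR adjusted p = 0.0561 and Spag17 of -3.23 with adjusted p = 0.146. Spag6 went the other way, with 2, 5, 2 and 4 counts against 12, 2, 11 and 10 counts.

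The regulators upstream of the axoneme gave no call with all 8 tumors. Foxj1, the forkhead factor that drives motile cilium genes, was at 5.29, 2.44, 4.02 and 1.07 CPM in K-Ctrl and at 0.0514, 0.153, 0.277 and 5.48 CPM in K-Setd2KO tumors. K-Setd2KO replicate 4 had the highest Foxj1 level of all 8 tumors, and the other 3 lay below every K-Ctrl tumor. With it the log2 difference was -1.32 (SE 1.19, edgeR adjusted p = 0.496), and without it -4.39 with adjusted p = 0.0236. In the latter fit K-Ctrl tumors alone carried Foxj1 into the test. Mcidas, which acts upstream of Foxj1, had 6, 1, 4 and 0 counts against 4, 2, 8 and 3 counts. Ccno, a cyclin needed for centriole amplification, had 14, 0, 17 and 3 counts against 9, 2, 2 and 2 counts. At these depths neither Mcidas nor Ccno could be tested.

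Tumors of a group differed, and in K-Ctrl most members shared the highest and the lowest tumor. K-Ctrl replicate 1 was the highest K-Ctrl tumor in 25 of the 41 members and K-Ctrl replicate 4 the lowest in 30. K-Setd2KO replicate 4, the shallowest library, was the highest of its group in 20, and the other 3 K-Setd2KO tumors in 6, 4 and 10. Summed over the members without Tppp3, the levels were 184, 118, 146.0 and 78.3 CPM for K-Ctrl and 71.4, 65.2, 75.1 and 103 CPM in K-Setd2KO tumors. On that sum K-Ctrl replicate 4 lay inside the K-Setd2KO range. With Tppp3 the sums were 279.9, 156, 227 and 113 CPM and 80.5, 81.8, 85.8 and 117 CPM, again overlapping through the same tumors.

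Single tumors therefore decided several calls. Without K-Ctrl replicate 3 the members that fell were 2, Dnah9 and Tppp3, where 3.6% of all genes fell. Leaving out K-Ctrl replicate 1 left Dnah9, Dnah11 and Tppp3 (4.46% of all genes), and leaving out K-Setd2KO replicate 3 left Dnah9, Dnah10 and Tppp3 (4.14%). Without K-Setd2KO replicate 4, 32 members were tested and 12 fell, where 5.67% of all genes fell. These were the 6 named above with Foxj1, Hydin, Dnah5, Dnah1, Dnah12 and Cfap44. Foxj1, Hydin, Dnah5, Dnah1 and Dnah12, like Dnah9 and Dnah11, were below 0.788 CPM in all K-Setd2KO tumors that remained. K-Ctrl tumors alone thus carried them into that test. Without K-Ctrl replicate 4, 9 of 32 tested members fell, the same 6 with Dnah12, Hydin and Rsph4a, where 8.31% of all genes fell. Hydin stayed below 0.788 CPM in every K-Setd2KO tumor. DESeq2, with all 8 tumors, called 11 members lower, Rsph4a among them (12.5% of all genes), and 1 higher, Rsph3b (8.89%). Dnah9 and Tppp3 fell under every fit made, although Dnah9 exceeded the filter level in no K-Setd2KO tumor.

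Sex could be held fixed only in part. With sex by expression as a term, Dnah9 and Tppp3 fell (edgeR), where 5.25% of all genes fell. In that fit Dnah11, Dnah10, Dnah6 and Cfap43 had adjusted p of 0.0703, 0.0544, 0.0881 and 0.0983. Their log2 differences were -3.18, -2.32, -2.12 and -1.03, and the median of the tested members was -1.68. Among the 4 males (3 K-Ctrl, 1 K-Setd2KO) and among the 4 females (1 K-Ctrl, 3 K-Setd2KO), 14 of the 27 tested members were lower in every K-Setd2KO tumor than in any K-Ctrl tumor of the same sex, against 18.9% of all tested genes. With the untested members these were 17 of the 41. In 3 of the 27, Dnah17, Rsph3a and Rsph3b, the K-Setd2KO tumors were higher in both sexes (16.7% of all tested genes), as they were in the untested Mcidas. The 9 members whose groups did not overlap at all, 5 of the 6 called among them, meet this by construction. All 6 called members were among these 17, as were Dnah8, Dnah5, Dnah1, Dnah12, Cfap44, Hydin, Tekt2, Tekt4 and Tekt5, whereas Foxj1, Rsph4a and Spag17 were not.

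**Figure D4:**
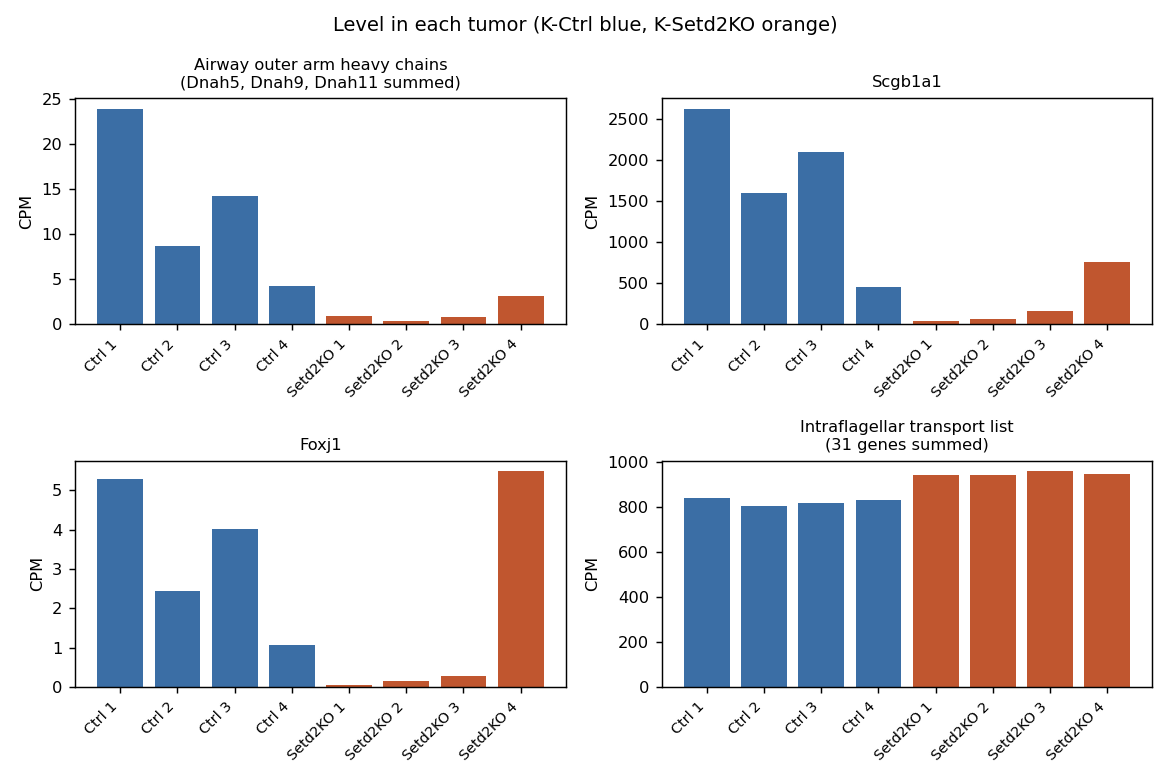
CPM (y axis, from 0) in each of the 8 tumors (x axis) of the 3 airway outer arm heavy chains summed, of the club cell gene Scgb1a1, of Foxj1 and of 31 intraflagellar transport genes summed, with K-Ctrl bars in blue and K-Setd2KO bars in orange. The airway chains and Scgb1a1 are tallest in K-Ctrl replicate 1 and short in K-Ctrl replicate 4, Foxj1 is tallest in K-Setd2KO replicate 4, and the transport genes are slightly taller in all K-Setd2KO bars.

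Markers of other lung cell types were read in the same tumors. Scgb1a1, the defining secretoglobin of airway club cells, was at 2631, 1598, 2103 and 458 CPM in K-Ctrl and at 38.0, 63.0, 163 and 758 CPM in K-Setd2KO tumors, a log2 difference of -2.74 with edgeR adjusted p = 0.0914. Within K-Ctrl the tumors stood in the same order for Scgb1a1 as for the summed airway heavy chains, and in K-Setd2KO replicate 4 was highest for both, with the other 3 in a different order. The 12 club and secretory markers summed to 1804 to 4024 CPM over K-Ctrl and 561 to 1303 CPM in K-Setd2KO tumors, without overlap. Scgb1a1 and Cbr2 together made up 83% to 91.7% of that sum in K-Ctrl tumors and 65.2% to 76% in K-Setd2KO replicates 2 to 4, but 17.9% in K-Setd2KO replicate 1, where Aldh1a7 and Cyp2f2 made up 79.8%. Of the 9 tested, 0 passed, 6 had a log2 difference below 0 and 3 above 0, and the median log2 difference was -0.34. Without K-Setd2KO replicate 4, Scgb1a1 and Gabrp fell, and without K-Setd2KO replicate 2, Muc5b rose. The 3, named after their values were seen, were Muc5b, Cyp2f2 and Aldh1a7, at log2 differences of 3.72, 0.35 and 0.33 with edgeR adjusted p of 0.0637, 0.519 and 0.538. Airway basal markers were near the floor, at summed levels of 0.923 to 1.68 CPM and 0.369 to 1.03 CPM with 0 of 6 tested. Neuroendocrine markers, also with 0 of 6 tested, summed to 0.714 to 2.46 CPM and 0.513 to 7.66 CPM. Among them Scg5, again named after its values were seen, was at 0.123, 0.420, 0.462 and 0.268 CPM in K-Ctrl and at 2.93, 0.535, 7.48 and 0.514 CPM in K-Setd2KO tumors, higher without overlap. The 0.514 CPM of K-Setd2KO replicate 4 is the floor of that library, and 9.06% of all tested genes were higher without overlap.

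Beside the 7.74% of all tested genes that fell, lists of cells outside the airway varied. Leukocyte markers fell in 7 of 8 (summed 532 to 1001 CPM in K-Ctrl, 193 to 257 CPM in K-Setd2KO), mesothelial markers in 4 of 6 (181 to 309 CPM, 91.0 to 145 CPM), endothelial markers in 2 of 8 (485 to 1904 CPM, 188 to 467 CPM) and alveolar type 1 markers in 3 of 10 (3038 to 6283 CPM, 1733 to 3131 CPM, overlapping). Of 6 smooth muscle markers 0 fell (75.8 to 151 CPM, 41.1 to 126 CPM). Without K-Ctrl replicates 1, 2 or 3 or K-Setd2KO replicate 3, 0 mesothelial markers fell, and 1 without K-Setd2KO replicate 4. Endothelial markers that fell were 0 without K-Ctrl replicates 1 or 3 or K-Setd2KO replicates 2, 3 or 4, and 4 without K-Ctrl replicate 2. Alveolar type 1 markers that fell were 1 without K-Ctrl replicate 3 or K-Setd2KO replicate 4, and 1 smooth muscle marker fell without K-Setd2KO replicate 1. Leukocyte markers that fell were 6 to 7 with any 1 tumor left out. Among 11 alveolar type 2 markers Napsa fell and Sftpb rose. Of the 11, 6 had a log2 difference below 0 and 5 above 0, and their sums overlapped at 60546 to 81428 CPM and 67664 to 98043 CPM. Of the 6 ependymal and choroid plexus markers, other tissues that carry motile cilia, Tmem212 and Ccdc153 are also on the airway ciliated list below. Only 2 of the 6 were tested, at log2 differences of -2.53 and -0.97, and 0 fell, or 1 without K-Setd2KO replicate 4. Ttr, the most abundant of the 6, was at 25.9 CPM in K-Ctrl replicate 1 and at 0.084 CPM or less in every other tumor. The part that the amount of airway, stromal or immune tissue in a tumor had in the member values was not tested.

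Genes of the same structures outside the member list were read the same way. Of the outer arm intermediate and light chains and docking factors, 7 of 12 were tested, and 1, Dnaic2, fell (14.3%, against 7.74% of all tested genes), from 2.71, 2.02, 1.89 and 2.14 CPM in K-Ctrl to 0.257, 0, 0.185 and 0.342 CPM in K-Setd2KO tumors (log2 fold change -3.51, SE 0.627, edgeR adjusted p = 0.0116). Dnaic2 encodes an intermediate chain on which outer arm heavy chains assemble, and no tumor overlapped. Dnaic2 was below the filter level in every K-Setd2KO tumor, so K-Ctrl tumors alone carried it into the test. Its partner Dnaic1 was not tested, at 3.45, 0.504, 2.17 and 0.179 CPM and at 0.0514, 0, 0.277 and 0.171 CPM. The 7 log2 differences ran from -3.51 to 0.46, with 4 below 0 and 3 above it, and their median was -0.01. The light chain Dnal4 was among those with a higher mean (log2 difference 0.33, edgeR adjusted p = 0.207).

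Inner arm light chain and nexin-dynein regulatory complex genes, the links between doublets, were lower in mean for 10 of 12 tested genes, with a median log2 difference of -1.53, and 0 passed. Iqcg, Drc7 and Drc1 came closest, at log2 differences of -1.66, -3.01 and -2.40 with edgeR adjusted p of 0.0506, 0.0528 and 0.0545. In the list of other central pair and axoneme genes, 26 were tested, 20 had a lower mean, the median was -1.24, and 2, Lrrc23 and Cfap74, fell. That is 7.69% of the list, near the 7.74% of all tested genes. The median was -0.73, -0.73 and -0.72 without K-Ctrl replicates 1, 2 and 3 and -1.89 without K-Setd2KO replicate 4. The genes that fell were 1 without any of those 3 K-Ctrl tumors or K-Setd2KO replicate 2, and 6 and 4 without the replicate 4 tumor of K-Ctrl and of K-Setd2KO. Lrrc23, a radial spoke component, was at 8.99, 4.20, 6.60 and 1.79 CPM in K-Ctrl and at 0.103, 0.306, 0.554 and 1.03 CPM in K-Setd2KO tumors (log2 fold change -3.62, SE 0.717, edgeR adjusted p = 0.0153). Cfap74, of the central pair, fell by 2.18 (SE 0.583, edgeR adjusted p = 0.0404). Neither gene overlapped between the groups.

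A further list held other genes of airway ciliated cells, of which Dynlrb2 is also on the outer arm list and Cfap126 on the axoneme list. Of its 25 tested genes 22 had a log2 difference below 0. In all, 5 fell (20%, against 7.74% of all tested genes) and 0 rose, with a median log2 difference of -1.59. Sec14l3, the most abundant of the 5, was at 627, 279, 506 and 232 CPM in K-Ctrl and at 45.1, 89.1, 96.8 and 72.7 CPM in K-Setd2KO tumors (log2 fold change -2.44, SE 0.367, edgeR adjusted p = 0.00799). Mlf1 fell by 2.93 (edgeR adjusted p = 0.00826) and Tuba1a, an alpha-tubulin that many cells make, by 1.65 (adjusted p = 0.0130). Fam183b and 1700007K13Rik also fell, at no more than 0.461 and 0.342 CPM in any K-Setd2KO tumor. These last 2 and Mlf1 were below the filter level in every K-Setd2KO tumor, so 3 of the 5 were carried into the test by K-Ctrl tumors alone, and the share and median of the list lean on the filter. The genes that fell were 3 without K-Ctrl replicates 1, 2 or 3 or K-Setd2KO replicate 1, and 11 without K-Setd2KO replicate 4.

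Lists of cytoplasmic and centriolar genes gave other medians. The list of assembly factors outside the Dnaaf names had 6 tested genes, Ruvbl1, Ruvbl2, Pih1d1, Pih1d2, Mns1 and Spag1. Their median was 0.14 with 0 calls. Without K-Setd2KO replicates 3 and 2 and K-Ctrl replicate 4 the median was 0.003, 0.089 and 0.044, and without K-Setd2KO replicate 2 Ruvbl1 rose. On that list 5 of the 16 names were not in the table's annotation, of which Heatr2, Ktu and Lrrc50 are older names of the members Dnaaf5, Dnaaf2 and Dnaaf1. Too low to test were Zmynd10 and Lrrc6, at means of 1.15 and 0.876 CPM in K-Ctrl against 0.273 and 0.29 CPM in K-Setd2KO. Ccdc103, also untested, went the other way, at 0.455 against 0.566 CPM. Dyx1c1 and Pih1d3 had hardly any counts. For the 17 tested of 24 genes of multiciliated cell transcription and centriole amplification the median was -0.02, again with 0 calls. Of the 24, 4 were lower in every K-Setd2KO tumor than in any K-Ctrl tumor and 0 higher. Of all tested genes 11.2% were lower and 9.06% higher in this way. Rfx3, a transcription factor of cilium genes that also acts outside multiciliated cells, was at 15.9, 15.4, 13.9 and 17.8 CPM and at 15.4, 12.0, 11.3 and 8.21 CPM (log2 difference -0.41, edgeR adjusted p = 0.215). Rfx3 was named after its values were seen. Plk4, the kinase that starts centriole duplication, had a log2 difference of -0.74 with edgeR adjusted p = 0.0668.

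Intraflagellar transport builds motile and primary cilia alike. Of its 30 tested genes 4 rose (13.3%, against 4.97% of all tested genes) and 0 fell, with a median of 0.22 against 0.03 for all genes. Dync2li1, a light intermediate chain of the retrograde transport motor, was at 17.7, 20.7, 19.4 and 16.4 CPM in K-Ctrl and at 32.6, 41.2, 35.0 and 29.1 CPM in K-Setd2KO tumors (log2 fold change 0.89, SE 0.151, edgeR adjusted p = 0.00974). Ift122, Ift81 and Wdr35 rose by 0.78, 0.74 and 0.69 with edgeR adjusted p of 0.0335, 0.0300 and 0.0160, and the summed list was at 805 to 840 CPM in K-Ctrl and at 941 to 957 CPM in K-Setd2KO tumors. None of the 4 overlapped between the groups, and neither did the sums. The median was 0.14 without K-Setd2KO replicate 4. The genes that rose were 2 without K-Ctrl replicates 1, 2 or 4 or K-Setd2KO replicate 3, and 1 without K-Ctrl replicate 3.

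Of 32 tested genes of the primary cilium, its transition zone and the BBSome, a coat that moves membrane proteins in cilia, 2 rose and 0 fell. These are 6.25% of the list, near the 4.97% of all tested genes that rose. Bbs2, a subunit of that coat, rose by 0.85 (SE 0.184, edgeR adjusted p = 0.0200), and the median of the list was 0.06. Without K-Ctrl replicates 1 or 3, 0 of the list rose. The contrast between these lists and the axoneme members is given by counts and medians alone and was not tested.

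**Figure D5:**
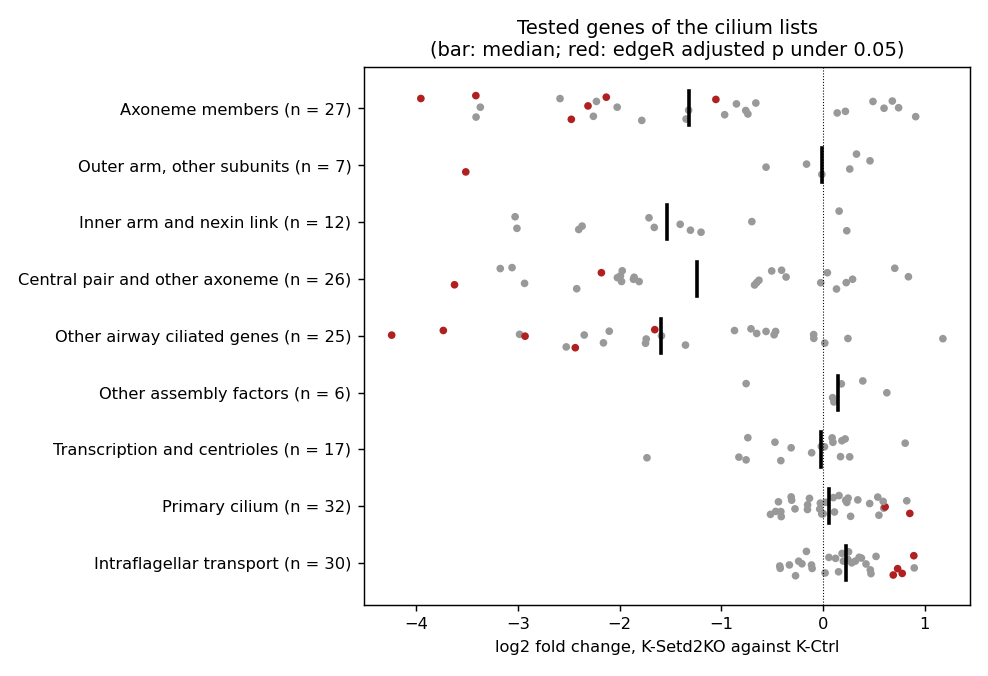
Log2 fold change of K-Setd2KO against K-Ctrl (x axis) for the tested genes of each cilium list (y axis), each point a gene, red where the edgeR adjusted p is below 0.05, with a bar at the list's median. The medians are -1.32 for the axoneme members, -1.53, -1.24 and -1.59 for the inner arm, central pair and airway ciliated lists, and 0.22 for intraflagellar transport.

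Promoter sequence was read for the regulators of this program, forkhead factors such as Foxj1 and the RFX family. RefSeq promoter windows on GRCm38.p6, from 250 bases before to 50 after each start site, were found for 34 of the 41 members (not Dnaaf1, Dnah3, Foxj1, Rsph1, Rsph10b, Rsph4a or Tppp3). The RFX motif, or X-box, was searched on both strands as GTNNCC, 3 bases of any kind, then GNAAC, and was present in 7 of 34 members (20.6%) against 673 of 27025 genes (2.49%). The forkhead motif TGTTTAC, or its reverse complement, was in 3 of 34 members (8.8%) against 1095 of 27025 genes (4.05%). Neither share was tested. The windows below show 30 bases on each side of a match, in the direction of the gene with the match in capitals, for some of these members. The first 5 hold an X-box close to the start site or, in Ccno, upstream, and the last holds the forkhead motif of the called gene Cfap43.
Cfap44, chr16:44394742-44394815, plus strand: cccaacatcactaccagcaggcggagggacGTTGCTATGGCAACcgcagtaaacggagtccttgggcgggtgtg
Hydin, chr8:110266926-110266999, plus strand: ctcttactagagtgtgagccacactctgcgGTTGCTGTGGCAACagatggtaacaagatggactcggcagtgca
Dnaaf2, chr12:69198403-69198476, minus strand: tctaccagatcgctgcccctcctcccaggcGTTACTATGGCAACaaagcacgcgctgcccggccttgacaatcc
Dnaaf5, chr5:139150187-139150260, plus strand: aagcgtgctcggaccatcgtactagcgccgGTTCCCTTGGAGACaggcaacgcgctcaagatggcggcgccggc
Ccno, chr13:112987553-112987626, plus strand: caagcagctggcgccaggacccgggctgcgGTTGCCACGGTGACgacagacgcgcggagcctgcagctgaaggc
Cfap43, chr19:47837380-47837446, minus strand: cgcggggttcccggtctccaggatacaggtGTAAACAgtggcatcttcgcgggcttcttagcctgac

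The matches in Cfap44, Hydin, Dnaaf2 and Dnaaf5 began 27, 21, 17 and 18 bases before the start site, and that in Ccno 219 bases before it. Cfap44, Hydin and Ccno had lower and Dnaaf2 and Dnaaf5 higher mean levels in K-Setd2KO tumors. Cfap44, Dnaaf2 and Dnaaf5 did not pass the test, and Hydin and Ccno were too low to be tested. The other members with an X-box were Dnah17 and Tekt4, which had a match starting at the start site itself. Of the 6 called members 5 had a window, of which 0 held the X-box and 1, Cfap43, the forkhead motif, 55 bases before its RefSeq start site. Dnah17 and Tekt3 held the other forkhead matches. A match records letters in this window and says nothing of binding in these tumors.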

How the data were processed

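The processed table held raw gene counts that the authors deposited for 8 flash-frozen mouse lung tumors, made from paired-end reads of TruSeq Stranded mRNA libraries. Per the submitters' processing notes, STAR 2.5.2b, featureCounts 1.5.0-p1 and GRCm38.p4 were used. The strand setting and annotation release are not given in the sources used here. Symbols came from GENCODE M21 (99.26% of identifiers found). The genes and lists were chosen with earlier results of these data known, and the pathway and marker lists hold textbook members.

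Counts were tested with edgeR 4.0.16 (R 4.3.3; filterByExpr, TMM scaling, robust quasi-likelihood fit on genotype, Benjamini-Hochberg over all 14929 tested genes, threshold 0.05). No p was adjusted over a list alone. Genes were named as follows: Setd2; the 15 tested members with the smallest p; the 3 with the highest log2 fold change; the 9 singly named members; the top gene per kilobase of each family; the 3 smallest p of each list; and the most abundant gene of each marker list. Other members are named to account for all 41.

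Alternatives were DESeq2 1.42.0, limma 3.58.1 voom, RLE and upper-quartile factors, no filter, at least 1 CPM in 4 tumors, a replicate block, a sex term, removal of length and GC trends, and each tumor left out. The fit was tested on simulated counts. No pair of libraries agreed within sampling noise (chi-square per degree of freedom 30.5 or more). Some items are not reported here.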

Additional observations from a re-analysis of the deposited data

Results flagged for a closer look

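In 5 of 56 groups of 4 tumors, 1 tumor stood apart from the other 3 by Dixon's criterion, where chance gives about 1 in 20, or 2.8 groups. Foxj1 was at 5.48 CPM in K-Setd2KO replicate 4 and at 0.0514 to 0.277 CPM in the other 3 K-Setd2KO tumors. In the same tumor Dnah12 was at 2.05 CPM, against 0.411 to 0.535 CPM in the others, and Dnah9 at 0.514 CPM, against 0.153 to 0.205 CPM, a value that rests on 3 counts. Dnah2 was at 3.78 CPM in K-Setd2KO replicate 3, against 0.685 to 0.924 CPM in the others. Rsph3b was lowest in K-Ctrl replicate 2, at 3.28 CPM, with the other K-Ctrl tumors at 5.36 to 5.53 CPM.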

How the results depend on the processing

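The count of members that fell (6) was 11 with DESeq2, which called 1 higher, 2 with the sex term and 2 to 12 when each tumor was left out, the extremes being without K-Ctrl replicate 3 and without K-Setd2KO replicate 4. Equal counts did not always hold the same members, since limma voom called 6 with Cfap44 and Dnah1 in place of Dnah11 and Dnah6. A filter of at least 1 CPM in 4 tumors gave 5, without Dnah11, and removing the length and GC trends gave 5, without Cfap43. With each tumor left out, Dnah10 and Dnah11 were called in 6 of 8 fits, Cfap43 in 3 and Dnah6 in 2. All genes called (1897) became 3194 with DESeq2, 1237 with the sex term and 763 to 2058 with a tumor left out. With length and GC trends removed 2730 genes were called, of which 38.2% were lower against 60.9% before, and the median of all genes moved from 0.03 to 0.17 on the log2 scale. The median of the tested members (-1.32) ranged from -2.01 without K-Setd2KO replicate 4 to -0.96 without K-Ctrl replicate 1. Medians near 0 changed sign in 3 lists and the alveolar type 2 markers. The alveolar type 2 median (-0.003) became 0.14 with length and GC trends removed, 0.004 with no filter, 0 with upper-quartile factors, and 0.05 to 0.08 without K-Ctrl replicates 2 or 4 or K-Setd2KO replicates 3 or 4 (0.071, 0.067, 0.081 and 0.053, against -0.113 without K-Setd2KO replicate 2). The outer arm list (-0.01) became 0.14 with trends removed and 0.042 without K-Setd2KO replicate 3 (-0.208 without replicate 4), the transcription and centriole list (-0.02) 0.13 with trends removed, 0.015 with the sex term and 0.002 without K-Ctrl replicate 2 (-0.166 without K-Setd2KO replicate 4), and the primary cilium list (0.06) -0.039 without K-Setd2KO replicate 2. Napsa, the alveolar type 2 marker that fell, was not called without any 1 of the K-Ctrl tumors or without K-Setd2KO replicate 1. The club median (-0.34) ran from -0.478 to -0.052, the latter without K-Ctrl replicate 4. For the inner arm light chain and regulatory complex list 5 fell without K-Ctrl replicate 4 and 2 without K-Setd2KO replicate 4. Dnaaf5 (0.14) had -0.025 with the sex term. The causes were not tested. Tumors with the same replicate number did not deviate together (correlations -0.074, -0.03, 0.191 and -0.023), so the numbers do not pair them. With the replicate block 4 members fell, Dnah9, Dnah10, Dnah11 and Tppp3, where 6.28% of all tested genes fell and 1341 were called in either direction. Depth limits the low members, since 3 counts were 0.514 CPM in K-Setd2KO replicate 4.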
